A study of Mus musculus with 6 samples.

Results

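The mRNA of 10 genes of transforming growth factor beta (TGF-beta) signalling was examined in cultured mouse natural killer (NK) cells. Signalling itself was not measured. The genes were the ligand gene Tgfb1, the receptor genes Tgfbr1, Tgfbr2 and Tgfbr3 and the signal transducer genes Smad2, Smad3, Smad4 and Smad7. The corepressor genes Ski and Skil completed the list. The genes were chosen by name, and all 10 were found among the 56953 genes of the deposited tables by matching Ensembl identifiers to mouse symbols. The cells were wild-type splenic NK cells of C57BL/6 mice, kept for 7 days in medium with recombinant human interleukin-2 (1700 U/ml) and 5% CO2. Of the 6 RNA-seq libraries, 3 came from cultures at 20% oxygen (normoxia) and 3 from cultures at 1% oxygen (hypoxia). The labels call the libraries biological replicates but state neither the age of the mice nor whether replicates came from separate mice. The p-values therefore measure only the spread between these libraries, which may in part be technical.

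TGF-beta is secreted in a latent form that must be released before it can bind. The active ligand brings together the receptor kinases TGFBR2 and TGFBR1, and TGFBR1 then phosphorylates SMAD2 and SMAD3, which enter the nucleus with SMAD4. SMAD7 blocks the receptor, and SKI and SKIL hold SMAD complexes in a repressive state. In NK cells TGF-beta is known to dampen cytotoxicity and proliferation and to favour features of tissue-resident innate lymphoid cells, such as the integrins CD103 and CD49a.

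Totals ran from 55104810 to 55794698 estimated counts per library. All 12 NK cell markers examined were tested, with a summed level of 26940 to 31039 CPM (counts scaled to library size, with TMM factors) in hypoxia and 24402 to 27788 CPM in normoxia. Most of this sum was the granzyme genes Gzmb (11744 ± 1432 and 11992 ± 697 CPM, SD, n = 3) and Gzma, which rose from 5684 ± 723 to 9931 ± 729.9 CPM (edgeR adjusted p = 0.00071). Eomes fell. Ncr1, Klrk1, Il2rb and Prf1 were lower in hypoxia in all 3 same-numbered pairs. Nkg7, Fcer1g and Tbx21 were higher in all 3 pairs. With all 6 libraries these genes passed the edgeR test under a replicate block but not without it. Klrd1 was higher in all 3 pairs and passed neither way, and Klrb1c and Gzmb had no shared direction over the pairs. The first principal component (55.5% of the variance) separated the oxygen levels, and the second (22.03%) set the replicate 1 libraries of both groups apart, so each call below was also made without these. The edgeR quasi-likelihood test of 15591 genes, adjusted by Benjamini-Hochberg and read at 0.05, called 1745 genes higher at 1% oxygen and 1516 lower, in all 20.9%. These counts were 2988 and 3120 under a replicate block, 2384 and 998 when scaling by library size alone, 1160 and 804 without hypoxia replicate 2, and 1146 and 942 without normoxia replicate 2.

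Of the 10 genes, 3 rose in hypoxia and 0 fell: the receptor gene Tgfbr1, the co-receptor gene Tgfbr3 and the corepressor gene Ski. Among all tested genes edgeR called 11.2% higher and 9.72% lower. No member had a lower call under any alternative run. In TMM-scaled CPM Tgfb1 alone was the gene whose hypoxia libraries all lay below the normoxia libraries. The median log2 fold change of the 10 genes, hypoxia over normoxia, was 0.15, against -0.0052 for all tested genes. It was 0.096 without hypoxia replicate 1 and 0.090 when normoxia replicate 1 was left out as well. It was 0.23 when scaling by library size alone, where the median of all genes was 0.08. All 10 passed the filter on low counts, with at least 10 counts in each of the 6 libraries. The same 3 genes were called without both replicate 1 libraries, where 20.8% of all genes were called (11.5% higher and 9.37% lower). Under a replicate block 5 members rose, Smad3 and Smad7 being added, where 39.2% of all genes were called (19.2% higher and 20.0% lower). In TMM-scaled CPM the libraries of the oxygen levels were fully apart for 5 of the 10 genes (4 higher, 1 lower), against 38.3% of all tested genes (19.6% higher and 18.7% lower). The lower gene, Tgfb1, overlapped between groups in estimated counts.

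**Figure D1:**
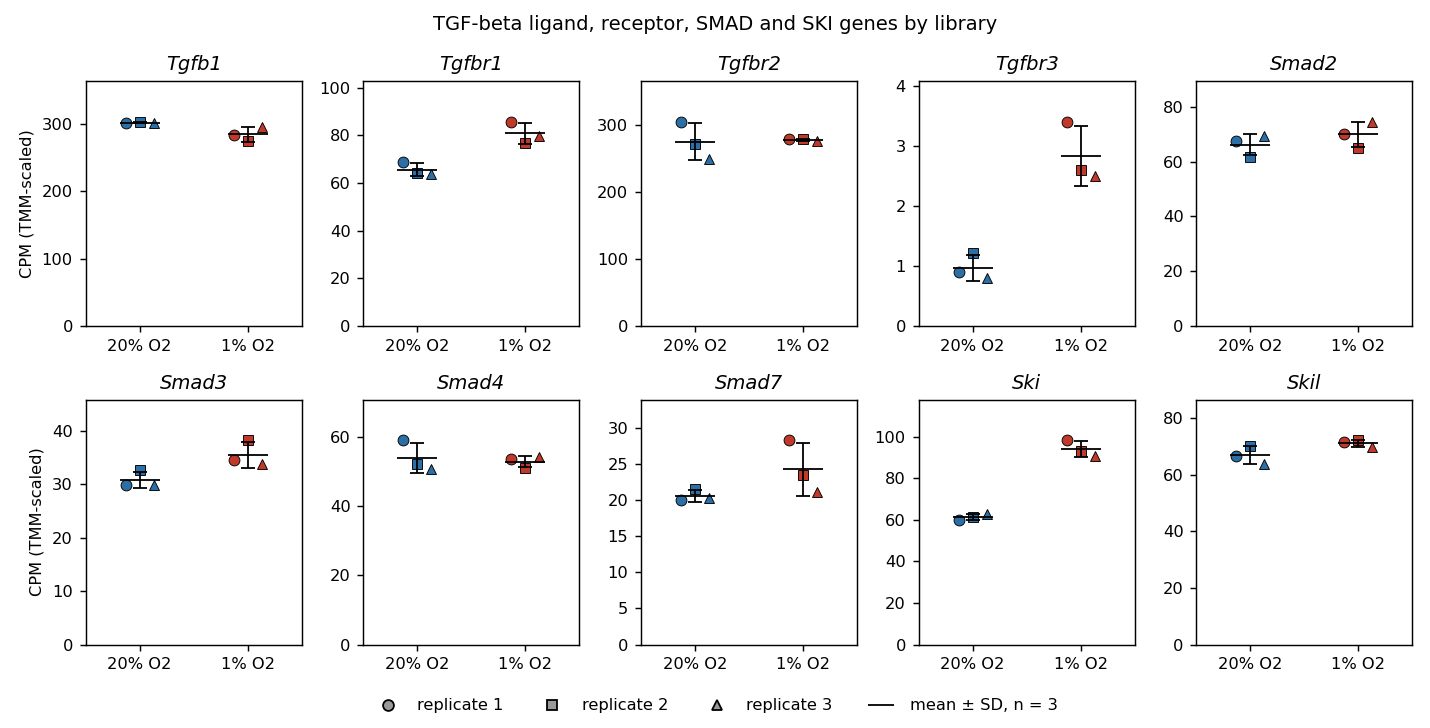
TMM-scaled CPM (vertical axis, from 0) of the 10 genes in each library at 20% and 1% oxygen; symbols mark the replicate number, and horizontal lines with bars the mean ± SD of 3 libraries. Tgfbr1, Tgfbr3, Smad3 and Ski are higher in each hypoxia library than in any normoxia library, Tgfb1 is lower, and the other 5 genes overlap.

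Levels of different genes were compared per kilobase of the longest annotated transcript. In normoxia Tgfb1 stood highest at 117 ± 0.424 CPM per kilobase (SD, n = 3), followed by Tgfbr2 at 34.1 ± 3.41, Smad4 at 15.9 ± 1.31, Tgfbr1 at 11.4 ± 0.491 and Ski at 11.1 ± 0.247. Lower down the order came Skil at 9.96 ± 0.481, Smad2 at 8.18 ± 0.476, Smad3 at 6.05 ± 0.306 and Smad7 at 4.83 ± 0.194 CPM per kilobase. Tgfbr3 lay far below the rest, at 0.159 ± 0.0353 CPM per kilobase. Of the neighbours in this order, Tgfbr1 and Ski overlapped between libraries and all other neighbours did not. In hypoxia Ski ranked above Smad4 and Tgfbr1, at 17.0 ± 0.695 CPM per kilobase against 15.6 ± 0.495 and 14.04 ± 0.781, and the order was otherwise the same. By the mean length of all annotated transcripts the order changed: in normoxia Smad2 (29.6 CPM per kilobase) and Smad3 (21.6) then ranked above Skil (16.3) and Ski (12.01). By that length Ski did not pass Smad4 or Tgfbr1 in hypoxia, at 18.4 CPM per kilobase against 39.5 and 32.2.

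**Figure D2:**
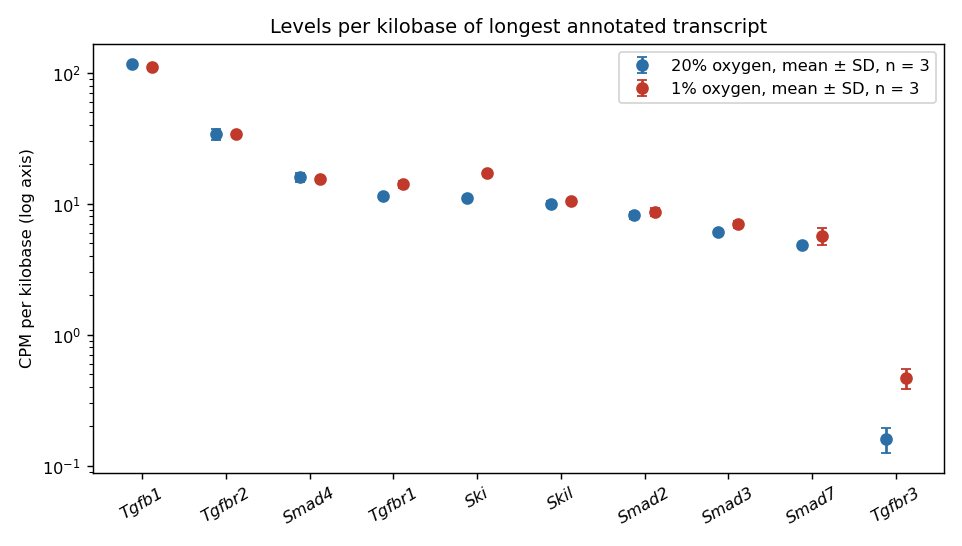
Mean level ± SD (3 libraries) of each gene in CPM per kilobase of its longest annotated transcript, on a log axis, at 20% and 1% oxygen. Tgfb1 is the highest at both oxygen levels and Tgfbr3 the lowest, and Ski moves from below Smad4 (11.1 against 15.9) to above it (17.0 against 15.6), a move not seen by mean transcript length (18.4 against 39.5 in hypoxia).

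Tgfb1 encodes TGF-beta 1, the isoform that lymphocytes mainly make. It measured 302, 303 and 301 CPM in normoxia replicates 1 to 3 and 284, 274 and 296 CPM in hypoxia. In TMM-scaled CPM each hypoxia library lay below all 3 normoxia libraries, and the groups did not overlap. This difference was small and did not pass the test (edgeR adjusted p = 0.44, log2 fold change -0.09 with SE 0.07). The estimated counts did overlap, at 15857, 16752 and 16474 in normoxia and 16219, 15828 and 16624 in hypoxia. When scaling by library size alone the log2 fold change was -0.0039 (edgeR adjusted p = 0.98).

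Tgfbr1 encodes ALK5, the receptor kinase that phosphorylates SMAD2 and SMAD3. It measured 68.9, 64.0 and 63.9 CPM in normoxia and 85.7, 76.8 and 79.9 CPM in hypoxia. All 3 hypoxia libraries were above all 3 normoxia libraries, a 1.23-fold rise (edgeR adjusted p = 0.015, log2 fold change 0.30 with SE 0.07, n = 3 per group). This call was lost without hypoxia replicate 1 (log2 fold change 0.26, edgeR adjusted p = 0.0582), normoxia replicate 2 (0.28, adjusted p = 0.0688) or normoxia replicate 3 (0.28, adjusted p = 0.0504). Without both replicate 1 libraries it held (0.29, edgeR adjusted p = 0.017).

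Tgfbr2 encodes the receptor kinase that binds the ligand and activates TGFBR1. It measured 305, 272 and 250.4 CPM in normoxia and 279, 279 and 277 CPM in hypoxia. The hypoxia libraries lay within the normoxia range, and the difference did not pass the test (edgeR adjusted p = 0.93, log2 fold change 0.01 with SE 0.09), its sign turning without normoxia replicate 3 (-0.053). Within each library, Tgfbr1 stood at 0.431, 0.387 and 0.406 of the level of Tgfbr2 per kilobase in hypoxia and at 0.317, 0.331 and 0.359 in normoxia. These ratios, chosen after the values were seen and not tested, do not depend on the scaling between libraries.

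Tgfbr3 encodes betaglycan, a co-receptor without kinase activity that presents ligand to TGFBR2 and also binds inhibins. It was scarce, with 47, 67 and 44 estimated counts in the normoxia libraries and 194, 150 and 140 in the hypoxia libraries. As a level this was 0.895, 1.21 and 0.804 CPM in normoxia and 3.40, 2.60 and 2.49 CPM in hypoxia. The lowest hypoxia library was above the highest normoxia library, and the rise was 2.91-fold (edgeR adjusted p = 0.00095, log2 fold change 1.54 with SE 0.21, n = 3 per group). When single libraries were left out the log2 fold change ran from 1.39 to 1.73 and the highest edgeR adjusted p was 0.0038, and without both replicate 1 libraries it was 1.33 (adjusted p = 0.0042). In bulk RNA a change in the share of cells that carry an mRNA and a change in the mRNA per cell cannot be told apart. Of the 31-base words of the longest Tgfbr3 transcript, 4.44% also occur in the gene model Gm43422.

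Smad2 and Smad3 encode the SMADs that TGFBR1 activates. Smad2 measured 67.4, 61.8 and 69.2 CPM in normoxia and 70.2, 65.1 and 74.5 CPM in hypoxia. Its groups overlapped, though each hypoxia library was above the normoxia library of the same number (edgeR adjusted p = 0.52, log2 fold change 0.08 with SE 0.08). Smad3 measured 29.9, 32.6 and 29.9 CPM in normoxia and 34.5, 38.2 and 33.7 CPM in hypoxia. Its groups did not overlap, but the difference did not pass the test (edgeR adjusted p = 0.10, log2 fold change 0.20 with SE 0.08). It passed under the replicate block (0.20, edgeR adjusted p = 0.0085) and when scaling by library size alone (0.29, adjusted p = 0.0479).

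Smad4 encodes the partner shared by all signalling SMADs. It measured 58.9, 52.0 and 50.6 CPM in normoxia and 53.4, 50.9 and 54.0 CPM in hypoxia. The groups overlapped and the difference did not pass the test (edgeR adjusted p = 0.84, log2 fold change -0.03 with SE 0.08). Its sign turned when scaling by library size alone (0.055) and without both replicate 1 libraries (0.031), so no direction is given.

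Smad7 encodes the inhibitory SMAD, itself a gene that TGF-beta is known to induce. It measured 20.03, 21.6 and 20.3 CPM in normoxia and 28.3, 23.5 and 21.1 CPM in hypoxia. Hypoxia replicate 1 was the highest library, and hypoxia replicate 3 lay among the normoxia libraries. The difference did not pass the test (edgeR adjusted p = 0.16, log2 fold change 0.23 with SE 0.11). The replicate block made it pass (0.23, edgeR adjusted p = 0.046). Without both replicate 1 libraries the log2 fold change was 0.09 (adjusted p = 0.53).

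Ski encodes the SKI corepressor, which recruits histone deacetylases to SMAD complexes. It measured 60.1, 61.5 and 62.8 CPM in normoxia and 98.3, 93.3 and 90.8 CPM in hypoxia. The gap between the groups was wider than the spread within either, and the rise was 1.53-fold (edgeR adjusted p = 0.00024, log2 fold change 0.62 with SE 0.07, n = 3 per group). It held with each library left out (log2 fold change 0.58 to 0.64, highest edgeR adjusted p = 0.0024) and without both replicate 1 libraries (0.57, adjusted p = 0.00055).

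Skil encodes SnoN, the close relative of SKI, and is also a known TGF-beta target. It measured 66.6, 70.2 and 63.8 CPM in normoxia and 71.4, 72.1 and 69.6 CPM in hypoxia. The groups overlapped (edgeR adjusted p = 0.40, log2 fold change 0.09 with SE 0.07). Within each library, the level of Ski per kilobase was 1.67, 1.57 and 1.59 times that of Skil in hypoxia and 1.097, 1.07 and 1.198 times in normoxia, a ratio chosen after the values were seen and not tested.

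**Figure D3:**
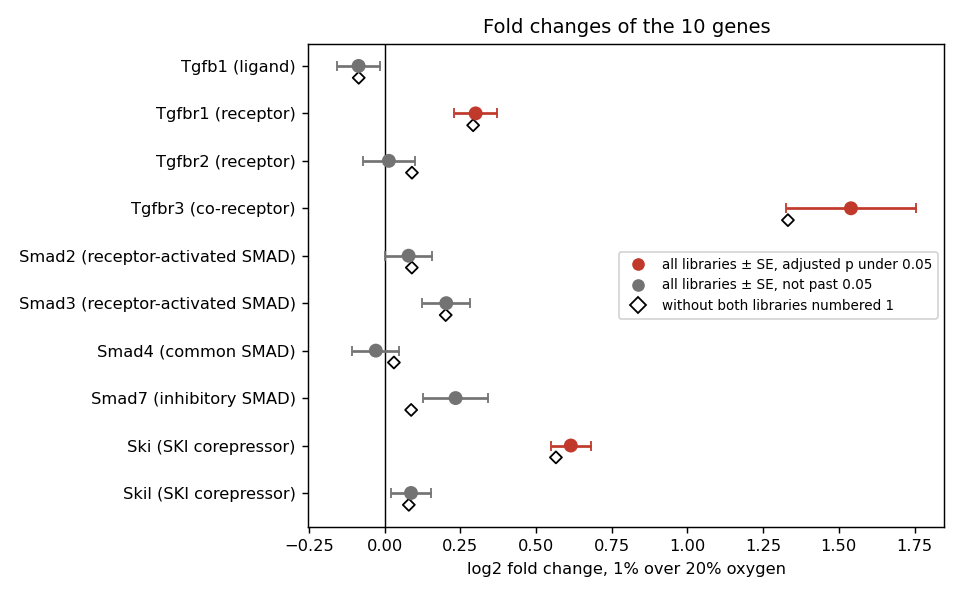
Log2 fold change of each gene, 1% over 20% oxygen, with its SE from all 6 libraries (filled points, coloured where the edgeR adjusted p is under 0.05) and the value without both replicate 1 libraries (open diamonds). Tgfbr3 (1.54), Ski (0.62) and Tgfbr1 (0.30) pass the test, and Smad7 is at 0.23 with all libraries and 0.09 without the replicate 1 libraries.

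Promoter sequences were at hand for 5 of the 10 genes (RefSeq, GRCm38.p6, matched by symbol), and those of Ski and of the first Tgfbr1 start site are shown because both genes rose. Each run is the 250 bases before the transcription start, 5′ to 3′ on the strand of the gene, and capitals mark the core that hypoxia-inducible factors bind (ACGTG or GCGTG, both strands searched). Ski lies on the minus strand at chr4:155222536-155222785 and Tgfbr1 on the plus strand at chr4:47352972-47353221.
Ski: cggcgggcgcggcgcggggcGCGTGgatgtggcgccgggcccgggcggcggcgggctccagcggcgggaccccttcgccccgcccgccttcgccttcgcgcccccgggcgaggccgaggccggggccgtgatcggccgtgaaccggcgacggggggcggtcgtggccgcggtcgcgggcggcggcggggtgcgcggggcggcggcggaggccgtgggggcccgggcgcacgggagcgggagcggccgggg
Tgfbr1: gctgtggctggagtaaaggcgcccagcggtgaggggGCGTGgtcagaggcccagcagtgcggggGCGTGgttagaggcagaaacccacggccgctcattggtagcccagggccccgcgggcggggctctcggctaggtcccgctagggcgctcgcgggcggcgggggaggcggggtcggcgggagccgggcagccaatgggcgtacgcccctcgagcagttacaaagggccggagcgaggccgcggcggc
The Ski window holds 1 core, 230 bases before the start, and the Tgfbr1 window holds 2, at 214 and 186 bases. A core was found in 38.6% of 32851 RefSeq promoter windows of the same length. It was also found in the windows of Tgfb1 and Tgfbr2 (1 each) and Smad3 (2), none of which passed the test, and not in that of the other Tgfbr1 start site. A SMAD-binding element (GTCTG, both strands) was found in neither window shown and in 42.2% of all windows. These are matches of letters only, and no binding was measured.

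Genes of like pattern were ranked by Euclidean distance of centred log2 CPM over the 6 libraries, among 11970 tested genes averaging at least 1 CPM. Closest to Ski were Pald1 (distance 0.10), Pxylp1 (0.11) and Dock5 (0.12). Dock5, the gene of a guanine nucleotide exchange factor, measured 227, 227 and 226 CPM in hypoxia and 149.9, 159 and 153 CPM in normoxia. Closest to Tgfbr3 were 2610509F24Rik (0.20), the long noncoding RNA gene Rian (0.29) and Cdc20b (0.34). Cdc20b measured 5.06, 4.71 and 4.31 CPM in hypoxia and 1.52, 1.67 and 1.37 CPM in normoxia.

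Other ligands of the family and the proteins that store and release them formed a list of 20 genes. Of these 11 were tested, 4 rose and 1 fell (median log2 fold change 0.33). Of all tested genes 11.2% rose and 9.72% fell (median -0.0052). Tgfb3, which encodes TGF-beta 3, rose 3.05-fold, from 20.4, 14.97 and 14.1 CPM in normoxia to 55.8, 47.9 and 46.9 CPM in hypoxia (edgeR adjusted p = 6.1e-05, log2 fold change 1.61 with SE 0.14). The lowest hypoxia library was above the highest normoxia library. Per kilobase, Tgfb3 stood at 0.149, 0.133 and 0.121 of the level of Tgfb1 in hypoxia and at 0.0513, 0.0375 and 0.0356 in normoxia, so Tgfb1 was the more abundant mRNA in every library. Itgav, the gene of the alpha V integrin that activates latent TGF-beta, rose from 106 ± 4.201 to 133 ± 3.54 CPM (SD, n = 3, edgeR adjusted p = 0.0079). The beta integrin genes Itgb6 and Itgb8 of the same list were too low to test. They stood at 0 CPM in each hypoxia library and averaged 0.012 and 0.006 CPM in normoxia. Activation of the ligand was not measured. Nrros, which encodes an anchor for latent TGF-beta 1, went down from 103 ± 3.63 to 73.6 ± 2.38 CPM (edgeR adjusted p = 0.00086). The other members that rose were Ltbp4, a gene of a latency-binding protein (lost without both replicate 1 libraries, edgeR adjusted p = 0.068), and Thbs1, the thrombospondin 1 gene, whose normoxia level was 0.136 ± 0.0469 CPM and whose hypoxia level was 0.480 ± 0.137 CPM. Thbs1 passed the filter on low counts through its hypoxia libraries, and under the stricter filter (1 CPM in 3 libraries) 8 genes were tested, 3 rose and 1 fell (median 0.16).

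Of 14 genes of other receptors of the family and other SMADs, 11 were tested, 6 rose and 0 fell (median log2 fold change 0.34). The shares of all tested genes were 11.2% higher and 9.72% lower. Bmpr1a, a bone morphogenetic protein (BMP) receptor kinase gene, rose from 1.54, 1.41 and 1.63 CPM to 4.59, 4.85 and 4.48 CPM (edgeR adjusted p = 7.0e-05, log2 fold change 1.60 with SE 0.14). Bmpr2, the gene of its partner, rose from 8.40 ± 0.347 to 14.7 ± 0.490 CPM (edgeR adjusted p = 0.00022). Acvr2a, an activin receptor gene, rose from 34.3 ± 3.20 to 55.9 ± 3.90 CPM (edgeR adjusted p = 0.00058). The groups did not overlap for any of these 3. The activin receptor gene Acvr1b, the endoglin gene Eng and Smad5, a SMAD of the BMP branch, also rose, with edgeR adjusted p of 0.047, 0.046 and 0.027. Of these, Eng (0.073) and Smad5 (0.067) did not pass without both replicate 1 libraries, where 4 rose. Eng measured 0.315, 0.520 and 0.267 CPM in hypoxia and 0.171, 0.145 and 0.165 CPM in normoxia and passed the filter on low counts through its hypoxia libraries. Under the stricter filter 9 genes were tested and 5 rose. Leaving out hypoxia replicate 1 gave a count of 3, as did leaving out hypoxia replicate 2 or, in turn, normoxia replicate 2.

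Of 27 SMAD regulators and cofactors, 25 were tested, 6 rose and 3 fell (median log2 fold change 0.06). Over all tested genes 11.2% rose and 9.72% fell, so the share that fell was near that of all genes. Ldlrad4 and Pmepa1 encode relatives that sequester SMAD2 and SMAD3 from the receptor. Ldlrad4 rose from 4.34, 3.58 and 3.64 CPM to 11.9, 10.9 and 10.6 CPM (edgeR adjusted p = 3.1e-05, log2 fold change 1.53 with SE 0.12). Pmepa1 rose from 4.13, 3.58 and 3.71 CPM to 11.04, 10.2 and 8.49 CPM (edgeR adjusted p = 0.00011, log2 fold change 1.38 with SE 0.13). For both genes the lowest hypoxia library was above the highest normoxia library. Hipk2, a kinase gene, rose from 11.03 ± 1.04 to 16.6 ± 1.30 CPM (edgeR adjusted p = 0.0030), as did Map3k7 (the kinase TAK1), Smurf2 and Wwp1 (ubiquitin ligases). Without both replicate 1 libraries Smurf2 (0.056) and Wwp1 (0.067) did not pass. Those that fell were Bambi, a pseudoreceptor gene, Tgif1, a corepressor gene, and Tab1, the gene of a TAK1 partner. Without hypoxia replicate 2, and again without normoxia replicate 2, 3 rose.

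**Figure D4:**
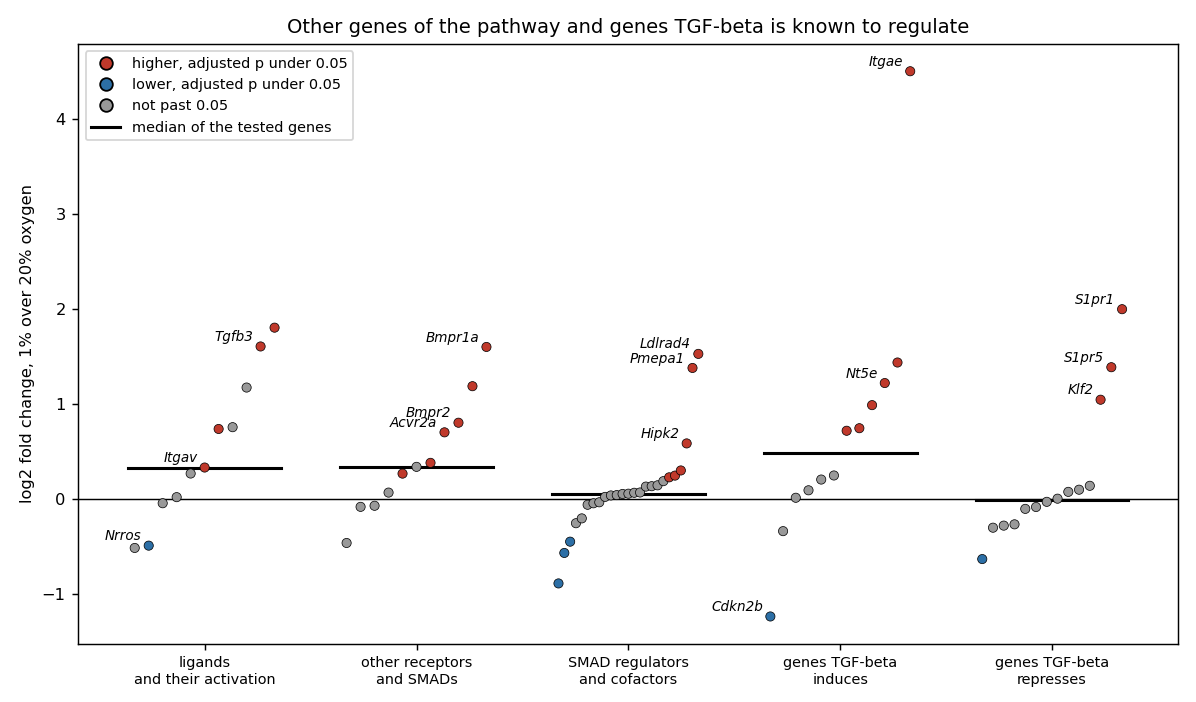
Log2 fold change, 1% over 20% oxygen, of each tested gene of 5 lists, coloured by call (edgeR adjusted p under 0.05), with the median of each list as a line and the genes named by rule labelled. Itgae (4.51) lies at the top, Cdkn2b (-1.24) fell, and the genes TGF-beta is known to repress have a median of -0.01.

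Genes that TGF-beta is known to induce numbered 15, of which 12 were tested, 6 rose and 1 fell (median log2 fold change 0.48). Beside this, 11.2% of all tested genes rose and 9.72% fell. The median of the list was 0.14 without normoxia replicate 3, 0.24 without hypoxia replicate 1, 0.27 under the stricter filter and 0.20 with no filter. The list was drawn up with the rise of Itgae already known, so its direction is no independent evidence. Itgae encodes CD103 and stood at 1.09, 0.688 and 0.841 CPM in normoxia and 19.4, 17.2 and 22.9 CPM in hypoxia. Nt5e, the gene of the ectonucleotidase CD73, rose from 21.1, 20.2 and 17.4 CPM to 42.7, 48.4 and 45.8 CPM (edgeR adjusted p = 3.0e-05, log2 fold change 1.22 with SE 0.09). Cxcr6, a chemokine receptor gene, and Ahr, the aryl hydrocarbon receptor gene, rose too, as did Id1 and Id3. Cdkn2b, the gene of the cell cycle inhibitor p15, moved the other way, from 13.6, 12.9 and 12.9 CPM in normoxia to 5.64, 4.95 and 6.12 CPM in hypoxia (edgeR adjusted p = 6.0e-05, log2 fold change -1.24 with SE 0.11). Itga1, the gene of CD49a, did not pass the test (edgeR adjusted p = 0.13, log2 fold change 0.20 with SE 0.09). With the block it passed (0.21, edgeR adjusted p = 0.022), as it did when both replicate 1 libraries were left out (0.28, adjusted p = 0.029), and its groups did not overlap.

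Of 14 genes that TGF-beta is known to repress, all 14 were tested, 3 rose and 1 fell, beside 11.2% and 9.72% of all tested genes. The median log2 fold change of the 14 was -0.01. It turned to 0.07 when scaling by library size alone and ran from -0.12 to 0.06 when single libraries were left out. The 3 that rose are known for the egress of lymphocytes from tissue. Klf2, a transcription factor gene, rose from 10.3, 9.78 and 9.52 CPM to 19.9, 22.1 and 19.1 CPM (edgeR adjusted p = 5.6e-05, log2 fold change 1.05 with SE 0.09). S1pr1, the gene of a receptor for sphingosine 1-phosphate that KLF2 is known to induce, rose from 0.999 ± 0.272 to 4.01 ± 0.927 CPM (edgeR adjusted p = 0.00040). S1pr5, the gene of a related receptor, rose from 0.708 ± 0.0145 to 1.86 ± 0.312 CPM (edgeR adjusted p = 0.0011). Eomes, an NK transcription factor gene, went down from 312 ± 28.5 to 201 ± 25.4 CPM (edgeR adjusted p = 0.0028). Under the replicate block 4 rose and 4 fell, where 19.2% of all genes rose and 20.0% fell. Without hypoxia replicate 3, 3 of the list fell.

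Markers of other cell types were read in the same libraries. Of 8 macrophage and monocyte markers the summed level was 50.8 to 83.6 CPM in hypoxia and 15.5 to 29.2 CPM in normoxia, most of it Cd68 (61.9 ± 16.5 and 16.4 ± 6.15 CPM). Lyz2 of the same list stood at 0 CPM in each normoxia library and at 0.193, 0.381 and 0.356 CPM in hypoxia (edgeR adjusted p = 0.0019). It passed the filter on low counts through its hypoxia libraries. Cd14 fell (1.47 ± 0.303 against 3.88 ± 0.637 CPM, edgeR adjusted p = 0.0010) and Csf1r stood at 1.03 ± 0.216 and 1.06 ± 0.294 CPM. Adgre1, C1qa and C1qb had under 10 counts in every library. Basophil and mast cell markers summed to 76.2 to 89.8 and 19.1 to 27.3 CPM, nearly all from Mcpt8 (79.7 ± 6.61 and 21.1 ± 4.10 CPM). Cpa3 of that list rose from 0.704 ± 0.498 to 1.96 ± 0.471 CPM (edgeR adjusted p = 0.027, at most 0.10 with single libraries left out). Fcer1a and Ms4a2 had under 10 counts. T cell markers summed to 263 to 313 and 234 to 258 CPM, 3 of 9 tested being higher. In hypoxia these 3 averaged 42.2 CPM (Cd3d), 103 CPM (Cd3g) and 0.700 CPM (Cd4). Their normoxia means were 20.1, 56.2 and 0.217 CPM, with edgeR adjusted p of 0.00010, 0.00047 and 0.011. None of the other tested T cell markers passed, and Cd3e stood at 11.3 ± 2.67 and 11.7 ± 1.19 CPM. Platelet markers summed to 1.57 to 1.82 and 0.951 to 1.47 CPM, and neutrophil markers to 0.683 to 1.91 and 0.127 to 0.305 CPM. Both neutrophil markers tested rose: S100a8 to 0.420 ± 0.242 CPM and S100a9 to 0.431 ± 0.238 CPM (edgeR adjusted p = 0.0022 and 0.0016). In normoxia each stood at 0.0063 ± 0.011 CPM, so they passed the filter through the hypoxia libraries. Ly6g of the same list was too low to test and moved the other way. Its normoxia libraries read 0.171, 0.0905 and 0.0914 CPM, and every hypoxia library was lower (0.035, 0.052 and 0). Elane and Mpo, also untested, had higher means under hypoxia (0.174 against 0 and 0.105 against 0.056 CPM), with overlapping groups. Retnlg was 0 throughout. B cell markers summed to 72.9 to 77.8 and 54.8 to 70.2 CPM, nearly all Ighm, while Ms4a1 and Pax5 had under 10 counts. Cd79b of that list rose from 0.271 ± 0.0772 to 0.988 ± 0.0445 CPM (edgeR adjusted p = 0.0011). Stromal and endothelial markers summed to 192 to 209.7 and 234 to 281 CPM, nearly all Pecam1, while Col3a1, Pdgfra and Cdh5 had under 10 counts. The part of other cells in the values of Tgfbr3, Tgfb3 or the other genes was not tested.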

How the data were processed

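NK cell libraries from 2 groups of 3 (7 days at 20% or 1% oxygen) were compared. The authors deposited an estimated count per Ensembl gene, not normalized, made per the submitters' processing notes with Trim Galore 0.6.4, kallisto 0.4.6 and edgeR 3.17 on GRCm39, with settings and an annotation release not given in the sources used here. Log2 CPM values were deposited by the authors as well; they equalled edgeR's log2 CPM of these counts (prior count 2, largest difference 0) and were not used further. Kallisto divides reads between similar transcripts: of the 31-base words of each member's longest transcript, 0% to 4.64% occurred in transcripts of other genes. Symbols matched 52029 of 56953 identifiers, and transcript lengths came from GENCODE M21, an earlier build.

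Estimated counts were rounded, filtered with filterByExpr (minimum count 10, total 15), TMM-scaled and compared with edgeR 4.0.16 (quasi-likelihood F-test, R 4.3.3, threshold 0.05, adjustment over all 15591 genes). Each SE was taken as the size of the log2 fold change divided by √F. Of the totals, 1 count is worth about 0.018 CPM. Alternatives were DESeq2 1.42.0, limma 3.58.1 (voom), other scalings and filters, a replicate block and leaving out libraries. No 2 libraries of a group were alike within counting error (chi-square per gene 11.04 to 54.1). Same-numbered libraries deviated together (correlations 0.47, 0.33 and 0.30 across genes), so the numbers in the labels were taken to pair them. Hypoxia replicate 2 with normoxia replicate 3 gave 0.12, and the other unlike numbers gave -0.35 to -0.013. The pairing entered the replicate block only: the edgeR test behind the calls was unpaired. Of each list the 3 tested genes with the smallest p and a mean of at least 1 CPM were named by rule, with the 3 genes nearest in pattern to each of the 2 members with the smallest p; other genes were named after their values were seen. The members, lists and alternatives were chosen with earlier results of these data known.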

Additional observations from a re-analysis of the deposited data

How the results depend on the processing

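Of the log2 fold changes of the 10 genes under 14 alternatives, 129 kept their direction and side of the threshold. Of the others, 5 turned, 3 passed anew and 3 no longer passed. The 21 other genes named by rule kept both in 294 of 294 values. These 21 were picked from the same libraries, by smallest p or by nearness to the 2 members with the smallest p. That they kept their calls is therefore no independent evidence. Genes named after their values were seen did not all keep both. Without both replicate 1 libraries Ltbp4, Eng, Smad5, Smurf2 and Wwp1 did not pass, and Itga1 did. Inpp4b, Map3k7 and Acvr1b did not pass in every run with a single library left out (highest edgeR adjusted p 0.076, 0.057 and 0.13). The values that turned were Smad4 under library size alone (0.055), without hypoxia replicate 2 (0.0096), without normoxia replicate 1 (0.039) and without both replicate 1 libraries (0.031, an alternative chosen after seeing the data), and Tgfbr2 without normoxia replicate 3 (-0.053). When single libraries were left out, Smad4 ran from -0.074 to 0.039 and Tgfbr2 from -0.053 to 0.092. With the replicate block 5 of the 10 genes rose, and over all genes 2988 rose and 3120 fell; with library size alone 998 fell. With single libraries left out, 1146 to 1980 genes rose and 804 to 1636 fell, and 2 to 3 of the 10 rose.

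Ligand and activation genes that fell numbered 2 with the DESeq2 Wald test, no filter or the replicate block, and 1 to 2 with single libraries left out. Other receptors and SMADs that fell numbered 1 with the DESeq2 Wald test, limma-voom or the replicate block, and 3 to 6 rose with single libraries left out. Of the regulators 5 fell with the replicate block and 3 to 5 rose with single libraries left out. Of the genes TGF-beta induces 2 fell with the DESeq2 Wald test, no filter, the replicate block or without both replicate 1 libraries, and 1 to 2 with single libraries left out. Of those it represses 2 fell with DESeq2 size factors, limma-voom, the stricter filter (1 CPM in 3 libraries) or without both replicate 1 libraries, 3 with no filter, 4 with the DESeq2 Wald test or the replicate block, and 1 to 3 with single libraries left out. The cause of these shifts was not tested.

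With mean transcript length, normoxia levels in CPM per kilobase were 244 for Tgfb1, 47.7 for Tgfbr2, 40.3 for Smad4, 29.6 for Smad2, 26.2 for Tgfbr1, 21.6 for Smad3, 16.3 for Skil, 12.7 for Smad7, 12.01 for Ski and 0.353 for Tgfbr3. Depth limits Tgfbr3 most, whose lowest library held 44 counts.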

Other observations

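Markers of type 1 innate lymphoid cells, relatives of NK cells that TGF-beta is known to favour, were read as a further list. It shares Cxcr6 and Itga1 with the genes TGF-beta is known to induce. Of its 8 markers, all were tested, 3 rose and 1 fell, beside 11.2% and 9.72% of all tested genes. Their summed level was 579 to 636 CPM in hypoxia and 459.9 to 543 CPM in normoxia. Zfp683, the gene of the residency factor Hobit, rose from 0.895, 0.869 and 0.859 CPM in normoxia to 3.75, 3.91 and 3.42 CPM in hypoxia (edgeR adjusted p = 3.0e-05, log2 fold change 2.08 with SE 0.16). Il7r, the interleukin-7 receptor gene, rose from 0.343, 0.489 and 0.274 CPM to 2.12, 3.14 and 1.89 CPM (edgeR adjusted p = 0.00023, log2 fold change 2.68 with SE 0.29). Cxcr6 was the other marker that rose. Inpp4b, a lipid phosphatase gene of the same list, went down from 80.3 ± 6.35 to 62.5 ± 4.35 CPM (SD, n = 3, edgeR adjusted p = 0.013). Its call was not kept in every run with a single library left out (highest edgeR adjusted p = 0.076). These genes were named after their values were seen.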
